A study of Rattus norvegicus with 6 samples.

Results

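The 10 genes described here encode subunits of the AMPA and NMDA receptors, the ion channels through which glutamate excites neurons. They were chosen by symbol, as Gria1 to Gria4 for the AMPA receptor and Grin1, Grin2a, Grin2b, Grin2c, Grin2d and Grin3a for the NMDA receptor. They are 10 of the 30076 gene symbols in the tables, and all 10 were read in all 6 libraries. Their values are FPKM, a fragment count scaled to transcript length and to library size, summed per symbol and library.

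The study asked whether cranial osteopathic manipulation, a hands-on treatment of the head, goes with a change in gene expression in aged rats. All 6 rats were male F344 rats, an inbred strain, aged 18 months. The manipulated group had 3 rats, treated over 7 days while anaesthetised with 1.5 to 3% isoflurane. The untreated group had 3 rats that also received the anaesthetic. Each rat gave 1 library of total RNA from a coronal section 1 mm thick, labelled as prefrontal cortex. Untreated replicates are numbered 1, 2 and 3 and manipulated replicates 4, 5 and 6, and these numbers pair no rats.

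AMPA receptors are tetramers that carry the fast part of excitatory transmission. An edited GluA2 subunit, the product of Gria2, keeps them almost impermeable to calcium, so the level of Gria2 against the other subunits sets what the channel passes. NMDA receptors need GluN1, encoded by Grin1, together with GluN2 or GluN3 subunits, and their opening needs glutamate, a glycine-site co-agonist and depolarisation. In the adult forebrain GluN2A and GluN2B are the usual GluN2 partners, while GluN2C and GluN2D are better known from cerebellum, thalamus, midbrain and interneurons.

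The rows of 4 subunits also named another gene. Gria2 shared its row with the microRNA gene Mir2985 in all 6 libraries, Gria3 with AABR07041374.1 and Gria4 with AC107267.1, also in all 6. Grin1 shared its row with C8g, a complement component gene, in untreated replicate 2 alone, where the row spanned 220.7 kb against 27.8 kb in the other 5 libraries. Fragments of 2 genes in a row could not be told apart. The microRNA is printed here because its 110-base hairpin has no FPKM of its own in these tables and every Gria2 value below includes its row. In the hairpin the capitals mark the mature microRNA, and in the mature sequence they mark the seed, bases 2 to 8. Both are written 5′ to 3′ from RefSeq, GRCr8.
Mir2985 hairpin: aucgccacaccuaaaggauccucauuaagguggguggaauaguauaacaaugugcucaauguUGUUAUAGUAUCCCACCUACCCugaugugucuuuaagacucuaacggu
rno-miR-2985: uGUUAUAGuaucccaccuaccc

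Promoter sequence was found in the RefSeq table for 5 of the 10 subunits. The 250 bases before the start are shown for Grin1, the subunit with the highest level, and for Grin2d, the one with the lowest, with CG dinucleotides in capitals. They lie at chr3:28528755-28529004 and chr1:105481237-105481486 in GRCr8, both on the minus strand, and are written 5′ to 3′ in the direction of the gene.
Grin1: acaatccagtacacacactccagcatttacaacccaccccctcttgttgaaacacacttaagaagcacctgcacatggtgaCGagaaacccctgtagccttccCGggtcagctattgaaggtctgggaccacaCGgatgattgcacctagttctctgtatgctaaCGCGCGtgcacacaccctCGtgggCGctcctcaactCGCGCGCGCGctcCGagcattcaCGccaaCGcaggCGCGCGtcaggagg
Grin2d: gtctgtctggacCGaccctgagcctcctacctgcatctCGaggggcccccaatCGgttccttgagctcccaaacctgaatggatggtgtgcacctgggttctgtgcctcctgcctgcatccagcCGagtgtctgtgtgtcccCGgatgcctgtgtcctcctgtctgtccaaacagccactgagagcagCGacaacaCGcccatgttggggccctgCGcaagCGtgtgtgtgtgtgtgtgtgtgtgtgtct
The window of Grin1 holds 19 CG dinucleotides at 57.6% GC, and 18.4% of the 33469 RefSeq windows of this length hold as many. That of Grin2d holds 9 at 60.4% GC, and 38.5% hold as many. The windows of Grin3a, Gria4 and Grin2c hold 16, 14 and 8. All 5 exceed the median of 5 CG dinucleotides over all windows. Both strands were searched for GGGCGG, the GC box, which was in 0 of the 5 windows and in 30.5% of all windows, and for TATAAA, which was in 0 of 5 and in 12.9%.

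Over the 6 libraries Grin1 had the highest mean level, 30.5 FPKM, followed by Gria2 with 25.6 and Gria1 with 24.3 FPKM. Gria3 had 13.2, Grin2b 12.7, Grin2a 9.15 and Gria4 8.89 FPKM. Grin2c followed with 5.43 FPKM, while Grin3a and Grin2d lay lowest at 1.64 and 1.61 FPKM. FPKM is per length, so these levels can be set against each other within a library. The limit is that Gria2, Gria3 and Gria4, and Grin1 in untreated replicate 2, have the value of a row joined with another gene.

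**Figure D1:**
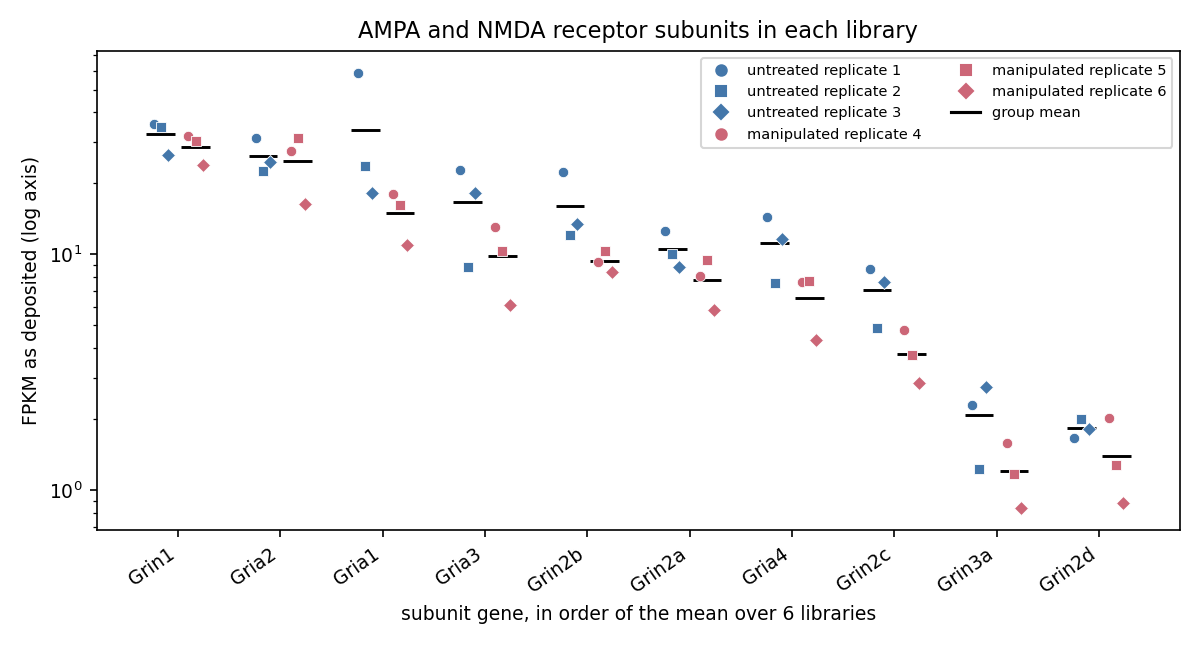
FPKM of each subunit (log axis) in the 3 untreated and 3 manipulated libraries, with a bar at each group mean, in order of the mean over 6 libraries. Gria1 in untreated replicate 1 stands at 59.0 FPKM, and Grin3a and Grin2d lie below 3 FPKM in all 6 libraries.

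The order had 4 steps that held in 6 of 6 libraries. These were Gria1 above Gria3, Grin2b above Grin2a, Gria4 above Grin2c and Grin2c above Grin3a, each with an exact two-sided sign-flip p of 0.03125, the smallest that 6 libraries allow, and 0.0703 after adjustment over the 9 neighbouring pairs. Grin1 exceeded Gria2 in 5 of 6 libraries with an exact p of 0.0625 and an adjusted p of 0.112. No pair passed at an adjusted p of 0.05, and the pairs were ordered by the means of the same 6 libraries that the test used. The other 4 neighbouring pairs had an exact sign-flip p of 0.375 or more. Gria2 exceeded Gria1 in 4 of 6 libraries (exact p 0.375), Gria3 exceeded Grin2b in 4 (exact p 0.719), Grin2a exceeded Gria4 in 4 (exact p 0.5) and Grin3a exceeded Grin2d in 2 (exact p 0.938). Within groups, Gria1 ranked 1 in untreated and 3 in manipulated rats by the mean. Its ranks in untreated replicates 1, 2 and 3 were 1, 2 and 3, and without untreated replicate 1 its untreated mean of 20.97 FPKM ranked 3, below Grin1 and Gria2. Grin2c ranked 8 in every library.

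All 10 subunits had a lower mean FPKM in manipulated rats, and 0 of 10 passed limma at an adjusted p of 0.05. The whole table moved the same way, with 87.0% of 10643 tested symbols below 0 and a median log2 change of -0.36. Log2 changes are manipulated minus untreated of log2(FPKM + 1), a scale that understates low genes. The 6 subunits in rows of their own had a median of -0.57. After median-ratio scaling of the libraries the median of all symbols was -0.0011, and 7 subunits lay below 0 and 3, Gria2, Grin1 and Grin2a, above it. The background rate of a lower call by limma was 0.272% in the fit of symbols in rows of their own and 0.165% in the fit that keeps rows naming several genes, which gave the values of Gria2, Gria3, Gria4 and Grin1. P-values here measure the spread between these rats. In a piece of tissue, fewer cells of a type and less RNA per cell cannot be told apart.

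Gria1 encodes GluA1, the subunit best known from activity-dependent insertion at synapses. In the rest of the text a row is placed as in untreated replicate 1 (Rnor_6.0), since its ends differed between libraries, and Gria1 as in manipulated replicate 4. That row lay at chr10:42441430-42762736, with 59.0, 23.6 and 18.3 FPKM in untreated and 18.0, 16.2 and 10.98 FPKM in manipulated rats. All 3 manipulated values lay below all 3 untreated ones, narrowly, and untreated replicate 1 stood far above the other 5. The means were 33.7 ± 22.1 and 15.0 ± 3.64 FPKM (SD, n = 3), with a log2 change of -0.96 (SE 0.43; limma adjusted p 0.326). Without untreated replicate 1 the log2 fold change was -0.47, and with median-ratio scaling it was -0.52, where the groups overlapped.

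The row of Gria1 was also shorter in that library. In untreated replicate 1 it began at 42614713 and spanned 148.2 kb, without the first 173.3 kb that the other 5 libraries include. In that stretch the tables list unnamed loci assembled in each library, 54, 17 and 47 in untreated and 6, 0 and 12 in manipulated rats. The part of the shorter row in the high value was not tested. The interval deposited for manipulated replicate 5 reached from 0 to 62.7 FPKM, so that value is imprecise.

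Gria2, the calcium-limiting subunit, was the AMPA subunit that differed least between groups as deposited. Its row at chr2:179584308-179704629, shared with Mir2985, had 31.3, 22.6 and 24.8 FPKM in untreated and 27.3, 31.2 and 16.4 FPKM in manipulated rats. The groups overlapped, and the lowest value was manipulated replicate 6. The means were 26.2 ± 4.51 and 25.0 ± 7.67 FPKM (SD, n = 3), a log2 change of -0.10 (SE 0.32; limma adjusted p 0.831). The deposited intervals were wide in every library, between 29.15 and 49.41% of the value on each side.

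With median-ratio scaling Gria2 turned to the other side of 0. The scaled FPKM were 23.4, 23.5 and 19.6 in untreated and 28.8, 31.2 and 25.2 in manipulated rats, so that manipulated rats lay higher without overlap. The log2 change was 0.34 (SE 0.13; limma adjusted p 0.470). It was the 1 subunit of 4 in shared rows that was higher without overlap after scaling, where 9.92% of symbols were.

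Gria3 and Gria4 encode the other AMPA subunits. Gria3, at chrX:127561514-127829761, had 22.8, 8.83 and 18.2 FPKM in untreated and 13.0, 10.3 and 6.13 FPKM in manipulated rats. Untreated replicate 2 lay within the manipulated range, so the groups overlapped. The log2 change of Gria3 was -0.66 (SE 0.41; limma adjusted p 0.377). It was -0.23 with median-ratio scaling, -0.40 without untreated replicate 1, -1.03 without untreated replicate 2 and -0.39 without manipulated replicate 6.

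Gria4, at chr8:1548146-2045817, had 14.5, 7.53 and 11.6 FPKM in untreated and 7.62, 7.71 and 4.35 FPKM in manipulated rats. Its groups overlapped through the same untreated library, replicate 2, which lay just under 2 manipulated values. The log2 change was -0.68 (SE 0.32; limma adjusted p 0.356), -0.27 with median-ratio scaling and -0.45 without manipulated replicate 6. In untreated replicate 3 its deposited interval ran from 0 to 53.9 FPKM. Of the 4 subunits in shared rows, 0 lay lower without overlap in manipulated rats, where 23.6% of symbols did.

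Grin1 encodes GluN1, the subunit every NMDA receptor contains. Its row at chr3:2506896-2534663 had 35.8, 34.8 and 26.5 FPKM in untreated and 31.9, 30.2 and 23.9 FPKM in manipulated rats, and the groups overlapped. The means of 32.4 ± 5.11 and 28.7 ± 4.24 FPKM (SD, n = 3) gave a log2 change of -0.17 (SE 0.26; limma adjusted p 0.672). With median-ratio scaling it was 0.28, and leaving out 1 library gave -0.30 (untreated replicate 3) to -0.05 (manipulated replicate 6), with -0.09 and -0.11 without untreated replicates 1 and 2. Its deposited intervals were the narrowest of the 4 subunits in shared rows, at 3.71 to 4.28% of the value on each side.

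Grin2a and Grin2b encode the main forebrain GluN2 subunits. Grin2a, at chr10:5706139-6129696, had 12.6, 10.05 and 8.86 FPKM in untreated and 8.10, 9.47 and 5.84 FPKM in manipulated rats. These groups overlapped, with a log2 change of -0.39 (SE 0.26; limma adjusted p 0.374). With median-ratio scaling the log2 fold change of Grin2a was 0.01, and without manipulated replicate 6 it was -0.22. Its interval in manipulated replicate 6 reached from 0 to 43.4 FPKM.

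Grin2b, at chr4:169540984-169999873, had 22.4, 12.1 and 13.5 FPKM in untreated and 9.32, 10.3 and 8.39 FPKM in manipulated rats. All manipulated values lay below all untreated ones, and untreated replicate 1 was the highest. The means were 16.0 ± 5.56 and 9.34 ± 0.950 FPKM (SD, n = 3), a log2 change of -0.67 (SE 0.29; limma adjusted p 0.326). The interval of the highest value, in untreated replicate 1, ran from 0 to 67.9 FPKM. With median-ratio scaling the log2 fold change was -0.25 and the groups overlapped, and without untreated replicate 1 it was -0.42.

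Grin2c encodes GluN2C, which makes channels that magnesium blocks less. At chr10:103797963-103816907 it had 8.67, 4.90 and 7.63 FPKM in untreated and 4.78, 3.76 and 2.85 FPKM in manipulated rats. The groups did not overlap, though untreated replicate 2 and manipulated replicate 4 nearly met. The means were 7.07 ± 1.95 and 3.80 ± 0.968 FPKM (SD, n = 3), a log2 change of -0.74 (SE 0.27; limma adjusted p 0.322), and between 0.0581 and 0.655 over the other settings.

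Grin2c was also the subunit whose groups stayed apart after scaling. With median-ratio scaling its FPKM were 6.51, 5.10 and 6.06 in untreated and 5.02, 3.76 and 4.37 in manipulated rats, a log2 change of -0.36 (SE 0.13; limma adjusted p 0.405). It was 1 of 6 subunits in rows of their own to do so, where 9.72% of symbols did. As deposited, Gria1, Grin2b and Grin2c were 3 of those 6 to lie lower without overlap, where 23.7% of symbols did. Grin2b and Grin2c were 2 of 6 with an unadjusted p under 0.05, where 13.6% of symbols were lower at that p.

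Grin2d and Grin3a were the lowest subunits. Grin2d, at chr1:101820075-101857417, had 1.67, 2.01 and 1.82 FPKM in untreated and 2.02, 1.28 and 0.884 FPKM in manipulated rats. The highest of its 6 values was in a manipulated rat. Its log2 fold change was -0.27 (SE 0.25), with a limma adjusted p of 0.489, and it was -0.0063 with median-ratio scaling, -0.45 without manipulated replicate 4 and -0.11 without manipulated replicate 6.

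Grin3a, which encodes a GluN3 subunit that lowers calcium entry, lay at chr5:64925494-65073012. It had 2.29, 1.24 and 2.73 FPKM in untreated and 1.59, 1.17 and 0.840 FPKM in manipulated rats, and the groups overlapped through untreated replicate 2. The log2 change was -0.47 (SE 0.28; limma adjusted p 0.346) and -0.19 with median-ratio scaling. Leaving out 1 library gave -0.31 (untreated replicate 3) to -0.68 (untreated replicate 2).

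**Figure D2:**
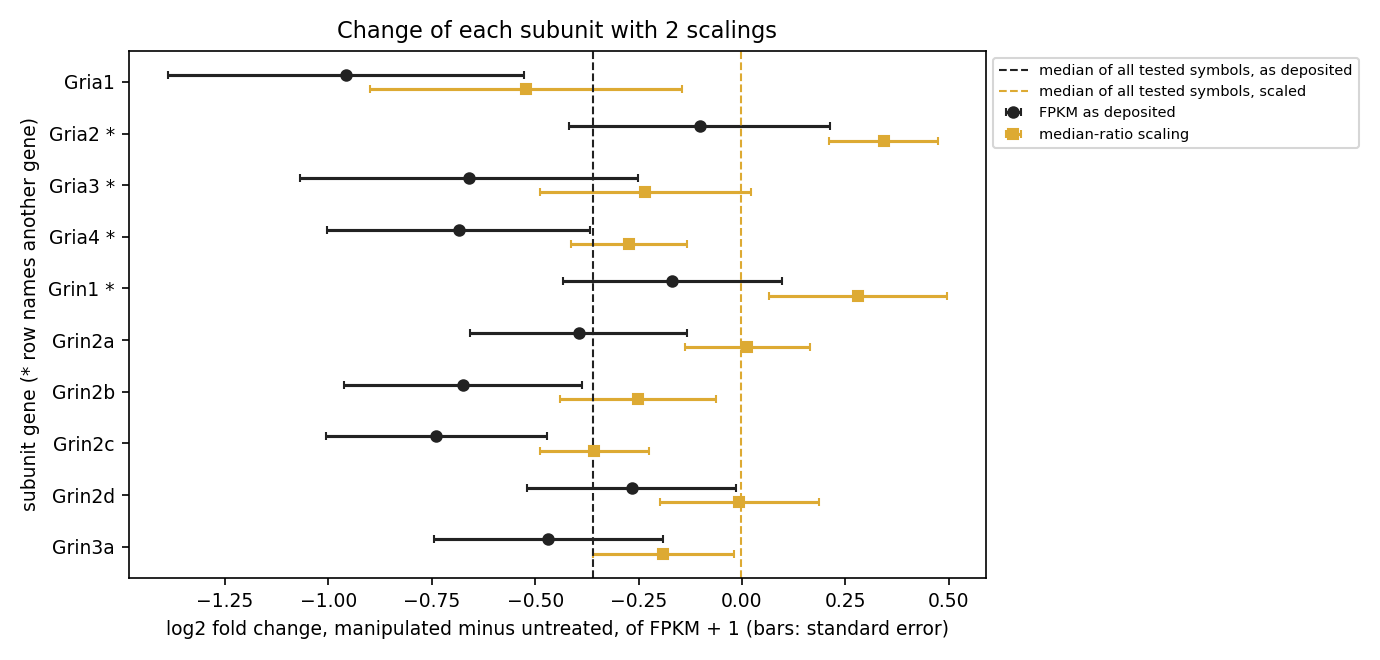
Log2 fold change of each subunit, manipulated minus untreated, of FPKM + 1, as deposited (circles) and with median-ratio scaling (squares), with SE bars and dashed lines at the median of all tested symbols. Scaling moves each subunit to the right, and Gria2, Grin1 and Grin2a cross 0, to 0.34, 0.28 and 0.01.

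Ratios of subunits within a library do not depend on the scaling between libraries. Of 10 ratios, 2 separated the groups, Gria1 to Gria2 and Gria4 to Gria2, both lower in manipulated rats. The exact permutation test of 3 against 3 cannot go below 0.1, which both reached, and the adjusted p over 10 ratios was 0.286 for both. With no group difference a ratio would separate, in either direction, at that rate of 0.1. The 2 ratios share Gria2 as denominator, so they are not independent.

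Gria1 to Gria2 was 1.89, 1.05 and 0.739 in untreated and 0.658, 0.518 and 0.670 in manipulated rats. Untreated replicate 1 was far the highest, and the nearest values of the groups were 0.739 and 0.670. The means were 1.22 ± 0.595 and 0.616 ± 0.0845 (SD, n = 3), a log2 difference of -0.89. Without untreated replicate 1 the difference was -0.52 and the groups stayed apart.

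Gria4 to Gria2 was 0.463, 0.333 and 0.470 in untreated and 0.279, 0.247 and 0.266 in manipulated rats. The manipulated values lay close together, below every untreated value. The means were 0.422 ± 0.0771 and 0.264 ± 0.0157 (SD, n = 3), a log2 difference of -0.66. Both ratios divide by the row that Gria2 shares with Mir2985. Against Grin1 instead, ratios chosen after their values were seen, Gria1 had 1.65, 0.679 and 0.691 in untreated and 0.564, 0.535 and 0.460 in manipulated rats, without overlap. Gria4 to Grin1 had 0.405, 0.216 and 0.439 in untreated and 0.239, 0.255 and 0.182 in manipulated rats, and there the groups overlapped. The value of 0.216 was in untreated replicate 2, where the Grin1 row is joined with C8g. The groups also overlapped for Gria3 to Grin1, Gria1 to Gria3 and Gria4 to Gria3, ratios chosen in the same way.

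Gria3 to Gria2 was 0.730, 0.391 and 0.733 in untreated and 0.476, 0.332 and 0.374 in manipulated rats, and untreated replicate 2 fell inside the manipulated range. Its log2 difference was -0.61, with an exact permutation p of 0.2, and it was -0.91 without that library. Gria2 to Grin1, which sets the AMPA against the NMDA core subunit, was 0.874, 0.649 and 0.935 in untreated and 0.857, 1.03 and 0.687 in manipulated rats. These overlapped, with a log2 difference of 0.07 and an exact permutation p of 0.8.

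Among NMDA subunits the ratio of Grin2a to Grin2b, often followed in cortical maturation, was below 1 in every library. It was 0.563, 0.828 and 0.655 in untreated and 0.869, 0.920 and 0.696 in manipulated rats, with means of 0.682 ± 0.135 and 0.828 ± 0.117 (SD, n = 3). The groups overlapped, with a log2 difference of 0.29 and an exact permutation p of 0.2. It was 0.16 without untreated replicate 1 and 0.44 without untreated replicate 2.

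Against Grin1, 5 subunits were set as ratios, and the log2 differences were -0.27 for Grin2a, -0.56 for Grin2b, -0.71 for Grin2c, -0.30 for Grin2d and -0.59 for Grin3a. The exact permutation p were 0.2, 0.2, 0.2, 0.4 and 0.3, and all 5 overlapped between groups. Grin2c to Grin1 had 0.242, 0.141 and 0.288 in untreated and 0.150, 0.124 and 0.119 in manipulated rats. Untreated replicate 2 alone fell within the manipulated range. It was also the untreated library inside that range for Grin2b and Grin3a, and the library whose Grin1 row is joined with C8g, the row that all 5 ratios divide by. Without it the log2 differences were -0.79 for Grin2b, -1.02 for Grin2c and -0.99 for Grin3a, each at 0.1 by the exact permutation test, where 2 against 3 cannot go lower. Without untreated replicate 3 that of Grin3a was -0.22. For Grin2b it was -0.37 without untreated replicate 1, and for Grin2d it was -0.16 without untreated replicate 3, -0.52 without manipulated replicate 4 and -0.13 without manipulated replicate 6. With a pseudocount of 1 FPKM in both terms, the log2 differences of Grin2d and Grin3a were -0.10 and -0.30.

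**Figure D3:**
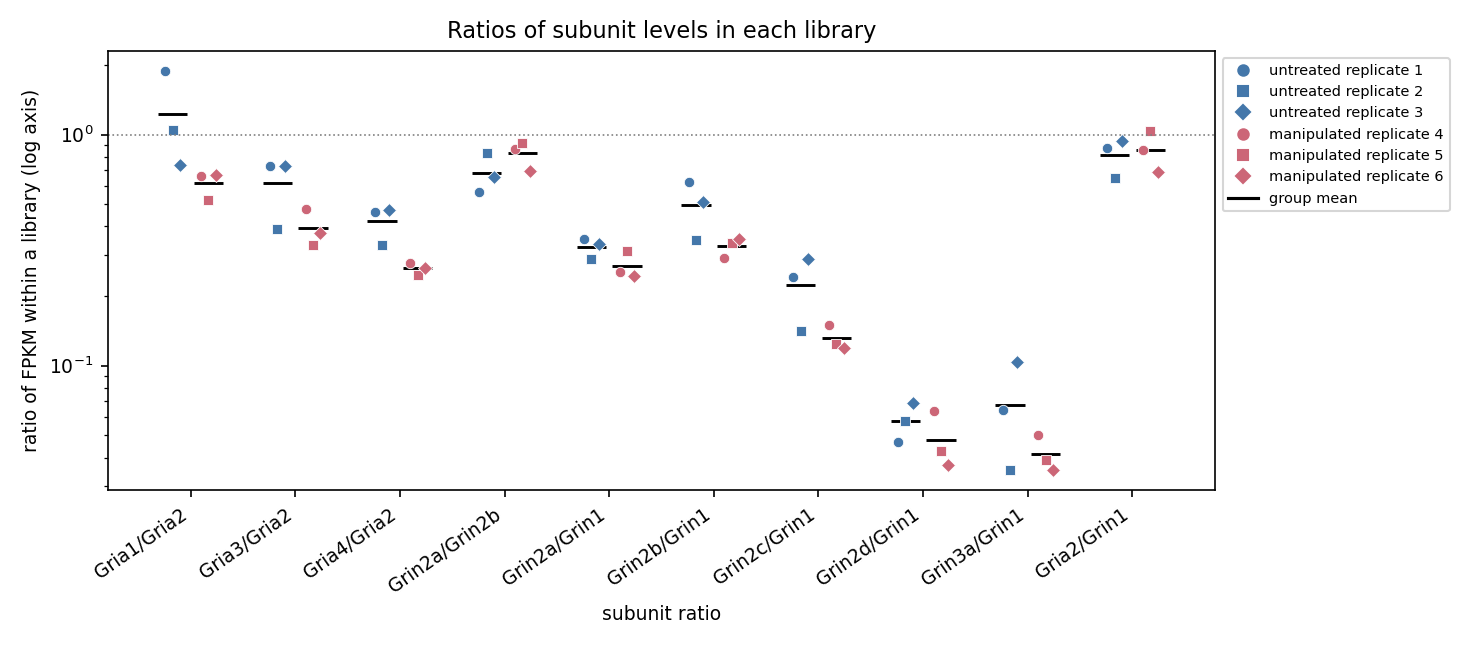
Ratios of subunit FPKM within each library (log axis), for 3 untreated and 3 manipulated libraries, with a bar at each group mean. The manipulated libraries lie below the untreated ones for Gria1/Gria2 and Gria4/Gria2.

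Shares of a family, which were chosen as a description after the levels were seen, show the same values another way. The share of AMPA subunit FPKM held by Gria2 was 24.5, 36.1 and 34.0% in untreated and 41.4, 47.7 and 43.3% in manipulated rats. The groups did not overlap, and the mean share was 31.5 against 44.1%. With no group difference a share would separate, in either direction, at a rate of 0.1. The Gria2 share is set by the ratios of the other AMPA subunits to Gria2, so it adds nothing to them. The other AMPA shares overlapped, and the shares were not tested. The Gria2 value is that of the row joined with Mir2985. Gria1 took 25.1 to 46.3% of the untreated and 24.7 to 29.0% of the manipulated sum, Gria3 14.1 to 24.9% and 15.8 to 19.7%, and Gria4 11.4 to 16.0% and 11.5 to 11.8%. Shares of 1 family sum to 100%, so these are not independent of each other.

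The GluN2 shares overlapped between groups for all 4 subunits. Grin2b took 41.7 to 49.4% in untreated and 38.5 to 46.7% in manipulated rats, and Grin2a 27.8 to 34.5% and 32.5 to 38.2%. Grin2c took 16.8 to 24.0% and 15.2 to 19.7%, and Grin2d 3.69 to 6.91% and 4.92 to 8.35%.

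**Figure D4:**
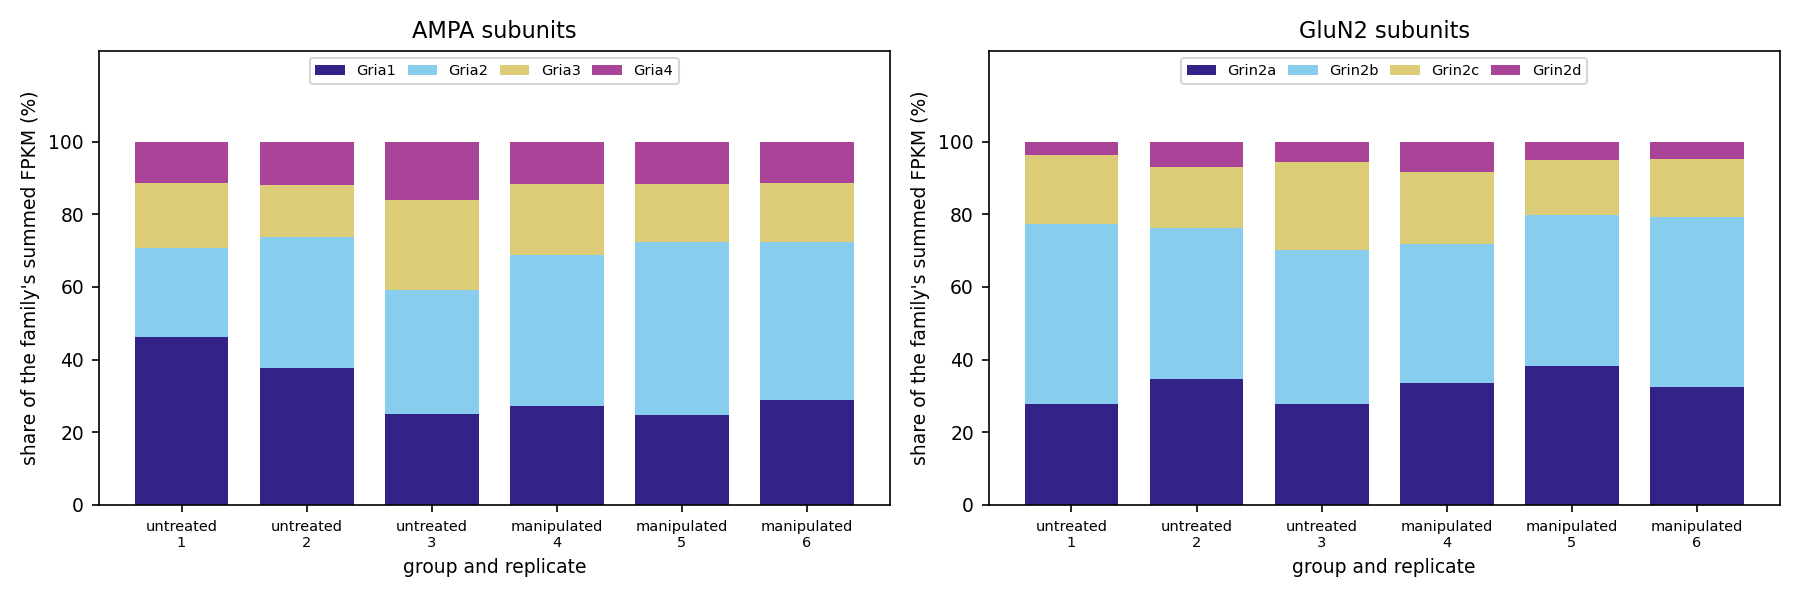
Share of each subunit in the summed FPKM of the AMPA family (left) and of the GluN2 family (right), in percent, for each library. The Gria2 segment is 41.4 to 47.7% in the manipulated and 24.5 to 36.1% in the untreated libraries. The shares of all other subunits overlap between groups.

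The genes that act with these receptors were counted in 5 lists of 83 genes, and 1 of the 60 tested in rows of their own passed limma. Of AMPA auxiliary subunits, which shape gating and trafficking, 0 of 13 passed, with a median log2 fold change of -0.34. Cnih2, a cornichon auxiliary, had 51.3 ± 11.4 and 30.6 ± 6.72 FPKM (SD, n = 3), Shisa6 3.39 ± 1.50 and 1.76 ± 0.549 and Porcn 8.20 ± 1.08 and 5.61 ± 0.890, with adjusted p of 0.326, 0.326 and 0.328. Manipulated rats were lower without overlap in 4 of the 13, these 3 among them, where 23.7% of all symbols were. After median-ratio scaling 1 of the 13 was, Cnih2, where 9.72% of symbols were. In that scaling 2 of the 13 were higher without overlap, where 9.92% of symbols were in the fit that keeps rows naming several genes.

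Kainate and delta receptors, the other ionotropic glutamate receptors, had 0 of 7 passing, with a median of -0.24. Grik3 had 2.35, 1.95 and 2.67 FPKM in untreated and 5.35, 4.20 and 2.76 FPKM in manipulated rats, and the groups nearly met at 2.67 and 2.76. The log2 fold change was 0.59 with a limma adjusted p of 0.326, and 0.93 with 0.0860 after median-ratio scaling. Grik2 had 7.66 ± 2.47 and 5.10 ± 1.18 FPKM. After median-ratio scaling 2 of the 7 were higher without overlap, where 9.92% of symbols were in the fit that keeps rows naming several genes. In that scaling 0 of the 7 were lower without overlap, where 9.72% of symbols were.

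In the postsynaptic scaffold, which holds receptors at the synapse, 1 of 21 passed and the median was -0.37. Homer3, a Homer scaffold protein that links to metabotropic receptors, fell from 10.3, 8.93 and 6.94 to 1.63, 2.94 and 1.51 FPKM. The groups were far apart, with means of 8.72 ± 1.69 and 2.03 ± 0.796 FPKM (SD, n = 3), a log2 change of -1.70 (SE 0.25; limma adjusted p 0.0290). The call ended in 9 of 15 other settings of that fit, with adjusted p of 0.120 after median-ratio scaling and up to 0.136, and also with rows naming several genes kept, at 0.0735. Without untreated replicate 1 or 2 the adjusted p was 0.0594 or 0.0582, and without manipulated replicate 4 or 6 it was 0.0654 or 0.133. Named after their values were seen, Pick1, which binds GluA2, had 5.90 ± 1.38 and 3.22 ± 0.550 FPKM with an adjusted p of 0.310, and Nptx2, a secreted pentraxin that clusters AMPA receptors, 6.81 ± 1.67 and 4.08 ± 0.831 FPKM with 0.326.

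Kinases, phosphatases and calcium signalling genes had 0 of 12 passing and a median of -0.33. Camk2d, a CaMKII subunit, had 16.5 ± 6.44 and 8.31 ± 1.29 FPKM (SD, n = 3) and Ptk2b 36.0 ± 8.79 and 23.3 ± 6.41 FPKM, with adjusted p of 0.322 and 0.333.

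Genes of glycine-site co-agonist supply and RNA editing had 0 of 7 passing and a median of -0.43. Adarb1 encodes ADAR2, the enzyme that edits the calcium-determining site of GluA2. It had 25.5, 20.2 and 24.1 FPKM in untreated and 10.03, 10.28 and 6.50 FPKM in manipulated rats, far apart. The log2 change was -1.31 (SE 0.27; limma adjusted p 0.146), and it was -0.88 with 0.0274 after median-ratio scaling, and the gene passed in 5 of 15 other settings. Adarb2 had 3.01 ± 0.730 and 1.84 ± 0.458 FPKM and Phgdh, a serine synthesis enzyme, 10.9 ± 1.86 and 7.55 ± 1.83 FPKM, with adjusted p of 0.328 and 0.333. Editing itself was not measured in these tables.

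Markers of cell types and regions were summed in the same libraries. Cortical glutamatergic neuron markers summed to 261 to 332 FPKM in untreated and 224 to 387 in manipulated rats, with Nrgn at 175 ± 20.4 and 200.3 ± 60.3 FPKM (SD, n = 3) and Slc17a7 at 89.0 ± 19.8 and 61.7 ± 11.9. Of the 10, Emx1 was listed at 0 FPKM in untreated replicate 2, and the other 9 were above 0 FPKM in all 6 libraries. By log2 change 6 of the 10 lay below 0 and 4 above, with 0 passing. After median-ratio scaling 3 of the 10 were higher without overlap, where 9.92% of symbols were in the fit that keeps rows naming several genes. In that scaling 2 of the 10 were lower without overlap, where 9.72% of symbols in rows of their own were. Striatal medium spiny neuron markers summed to 64.9 to 99.8 FPKM in untreated and 105 to 275 in manipulated rats, with 11 of 11 above 0, 0 passing, and Ppp1r1b at 26.0 ± 7.77 and 73.7 ± 33.8 and Penk at 22.4 ± 6.01 and 57.8 ± 27.1 FPKM. After median-ratio scaling all 11 were higher without overlap, where 9.92% of symbols were in the fit that keeps rows naming several genes. Of these 1 passed, Scn4b, with a log2 change of 1.73 and a limma adjusted p of 0.0246. In that scaling 31 of 10580 symbols in rows of their own passed. Thalamic and hypothalamic markers summed to 114 to 163 FPKM in untreated and 14.8 to 17.4 in manipulated rats. All 9 tested were lower and 7 passed (6 after median-ratio scaling), where 0.272% of all symbols were called lower as deposited. Prkcd had 34.5 ± 5.74 and 4.10 ± 0.382 FPKM and Pmch 23.3 ± 6.29 and 0.0689 ± 0.0636. Gria4 and Grin2c are known to be expressed in thalamus as well as in cortex. The part of the marker lists in the values of these or any other subunit was not tested.

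Further lists ranged in the same libraries as follows, untreated before manipulated. Hippocampal markers summed to 23.4 to 40.4 and 13.9 to 20.3 FPKM, with Wfs1 and Zbtb20 highest, and cerebellar granule cell markers to 2.64 to 4.39 and 1.41 to 1.44, with Pax6 and Neurod1. These made up nearly all of the cerebellar sum. Gabra6, Fat2 and Cbln3 of that list had means of 0.0142, 0.0264 and 0.0201 FPKM over the 6 libraries, under the filter. GABAergic interneuron markers summed to 266 to 398 and 198 to 278 FPKM, with Cck and Pvalb highest, and astrocyte markers to 526 to 786 and 319 to 611, with S100b and Aldoc. Cck carried the lower interneuron sum, at 162 ± 31.5 and 47.7 ± 7.6 FPKM (SD, n = 3), while 7 of the 10 interneuron markers lay above 0, with a median log2 change of 0.46. After median-ratio scaling 7 of the 10 were higher without overlap, where 9.92% of symbols were in the fit that keeps rows naming several genes. In that scaling 1 of the 10, Cck, was lower without overlap, where 9.72% of symbols in rows of their own were. Of the 10, 1 passed after that scaling, Slc32a1, with a log2 change of 1.12 and a limma adjusted p of 0.0359. Oligodendrocyte precursor markers summed to 33.4 to 38.1 and 24.6 to 37.0 FPKM, with Olig1 and Olig2, microglial markers to 53.0 to 73.3 and 35.9 to 55.5, with C1qa and C1qb, and choroid plexus markers to 459 to 467 and 239 to 1235, with Ttr and Folr1. No marker of these lists was listed at 0 in all libraries.

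Likeness was measured as the root mean square difference of log2(FPKM + 1), each gene centred on its own mean, over the 6 libraries. A smaller value means a closer pattern, and libraries share depth and composition, so this is a description. The closest genes were Vps13c (0.162) and Icam5 (0.171) for Gria1, Slc30a6 (0.0421) and Pon2 (0.0455) for Gria2, Ugp2 (0.104) and Mapk12 (0.104) for Gria3, and Hnrnpc (0.0424) and Gpbp1 (0.0449) for Gria4. They were Tnfrsf19 (0.0379) and Fn1 (0.0493) for Grin1, Hmgb2 (0.0270) and Myl9 (0.0408) for Grin2a, and Rhot1 (0.0632) and Cyp2j10 (0.0697) for Grin2b. They were Pitpnm1 (0.0495) and Sf3b1 (0.0556) for Grin2c, Zfp704 (0.0666) and Phldb1 (0.0727) for Grin2d, and Tlnrd1 (0.0390) and Pdpr (0.0453) for Grin3a. Gria1 was the subunit with the least close match. Among the subunits themselves the nearest pair was Gria4 with Grin2c at 0.130, and Gria1 was farthest from all, with Grin2b nearest at 0.344.

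Each library also holds unnamed loci inside the span of the subunit rows, which are listed apart from the subunit. Gria1 held 20 to 89 in untreated and 2 to 13 in manipulated rats, Gria4 37 to 72 and 10 to 29, and Grin2a 33 to 90 and 7 to 39. The counts overlapped between groups for Gria2 (5 to 10 and 1 to 11), Gria3 (2 to 11 and 1 to 13), Grin2b (7 to 52 and 7 to 33), Grin2c (2 to 8 and 1 to 3) and Grin2a. Per 1000 unnamed loci of the library, Gria1 held 0.39 to 1.34 in untreated and 0.12 to 0.36 in manipulated rats, while Gria4 (0.44 to 1.08 and 0.58 to 0.82) and Grin2a (0.64 to 1.36 and 0.41 to 1.07) overlapped. The Gria1 groups nearly met at 0.39 and 0.36, and genes other than the subunits were not counted in this way. In Grin1, Grin2d and Grin3a there were at most 2 in any library. The libraries as a whole had 51528 to 83180 unnamed loci in untreated and 17102 to 36546 in manipulated rats, and 10231 to 10892 and 9235 to 10125 symbols at 1 FPKM or more. Read totals were not used here.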

How the data were processed

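RNA-seq of 6 rat libraries was deposited as 1 gene-level table each. Values are FPKM, which the authors computed by Cufflinks (no version stated) after alignment by STAR 2.7.3a to Rnor_6.0, per the submitters' processing notes, with an interval and a status per row, per the file headers. The sources used here name no annotation release, strandedness or read total, so depth is unknown. Start positions count from 0 and are printed counted from 1.

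Of 30076 symbols, those sharing a row (3254), at several places (219), with a failed estimate (7) or missing from a library (35) were left out, and 10643 with a mean of at least 1 FPKM were tested. A second fit kept shared rows (12732 features). Log2(FPKM + 1) was tested by two-sided limma (3.58.1, R 4.3.3, mean-variance trend), with Benjamini-Hochberg adjustment over all tested symbols. Log2 fold changes understate low genes. Ratios and the order used exact permutation tests. The planned sums without shared rows would leave no value for Gria2, Gria3 and Gria4, so shared rows were included in levels, ratios and shares. The limma test was checked on simulated data with noise independent between genes. That check did not include a shift shared by most symbols. Alternatives covered pseudocount, filter, scaling, variance model, weights, shared rows and leaving out each library. Named are all subunits, list members that passed or else the 2 to 4 with the smallest p (others are marked as named after their values were seen), the 2 highest markers of each list and the 2 closest genes per subunit. A marker list and a related gene that this rule would name are not reported here. The members and lists were chosen with earlier results of these data known. Tables used Python 3.11.15 and pandas 2.3.3.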

Additional observations from a re-analysis of the deposited data

How the results depend on the processing

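No subunit passed limma under any alternative. Of 154 alternatives for the subunit fold changes 144 kept the direction and 10 reversed it, and of 70 for the ratios 68 kept it and 2 reversed it. The cause of the reversals was not tested. Changing the filter, the variance model or the keeping of shared rows leaves a subunit's fold change as it is. Those alternatives could not reverse it, so the count of 144 overstates how firm the directions are. Leaving out 1 library used FPKM as deposited, where 87.0% of symbols lay below 0 in the fit of all 6. Gria2 was 0.34 with median-ratio and with upper-quartile scaling, 0.0675 with weights per library, 0.03 without untreated replicate 1 and 0.16 without manipulated replicate 6 (range -0.28 to 0.16 leaving out 1 library). Grin1 was 0.28 with either scaling and 0.0545 with weights. Grin2a was 0.0135 with median-ratio scaling and Grin2d 0.0236 with weights. The ratio of Gria2 to Grin1 ranged from -0.0941 to 0.22 on the log2 scale leaving out 1 library, at -0.0941 without untreated replicate 2 and -0.08 without manipulated replicate 5. Symbols passing numbered 38, against 20 with no filter, 84 with a robust prior, 940 with weights and 37 to 71 leaving out 1 library. The weights gave manipulated replicate 4 a weight of 6.12 and manipulated replicate 6 one of 0.234. In the kainate list 1 passed with weights (Grik3, adjusted p 0.0402). The scaffold list had 1, against 0 with a pseudocount of 0.01, no filter, a mean of at least 5 FPKM, either scaling or shared rows kept, 2 with weights (Homer3 and Pick1), and 0 to 1 leaving out 1 library, with the call lost without untreated replicate 1 or 2 or manipulated replicate 4 or 6. The editing list had 1 (Adarb1) with a mean of at least 5 FPKM, either scaling, a robust prior or weights. No paired analysis was possible because the replicate numbers are not shared between groups. The order with shared rows left out was not run, since Gria2, Gria3 and Gria4 would have no value. Having 3 rats a group limits the precision.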
